A study of Rattus norvegicus with 2 samples.

Results

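Myofiber barcodes of one species were droplet barcodes in which transcripts of the skeletal muscle fiber made up a large part of the RNA. Most of the RNA of each lay on genes of 1 species, either rat or mouse. A barcode was included when at least 5% of its unique molecular identifiers (UMIs, each marking 1 captured transcript) fell on 10 fiber genes, namely Acta1, Ckm, Mylpf, Tnnt3, Tnni2, Tnnc2, Myl1, Tcap, Pgam2 and Eno3. Barcodes under 500 UMIs or 200 genes, or with over 20% of UMIs on mitochondrial protein genes, were left out. In the chimera library, a barcode was kept as rat with at most 20% of its UMIs on mouse genes and as mouse with at least 80%, while every such barcode of the SD rat library was kept. These steps gave 3700 barcodes of the 23416 in both libraries, of which 1122 were chimera rat, 47 were chimera mouse and 2531 were SD rat. The barcodes were thus selected on their measured levels of the 10 genes and on their species share, and both are given below as descriptions.

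Skeletal muscle had been taken from 1 animal of each kind, a rat-mouse chimera and a Sprague Dawley (SD) rat, which served as control. The chimera grew from an SD rat embryo injected with mouse induced pluripotent stem cells (iPSCs). The iPSCs carried the Dmd mdx mutation, had been gene-edited to restore the dystrophin reading frame, and held the Pax7-nGFP reporter, which marks satellite cells, the stem cells of muscle. The control carried neither mouse cells nor the reporter, and age and sex of the sequenced animals are not given in the sources used here. In both animals, muscle of the whole body was minced, digested with collagenase, passed through cell strainers, freed of red cells by lysis and sorted for live cells with a viability dye before 10x Genomics 3′ libraries were made. The study asked which muscle cell types the mouse iPSCs had formed in the rat host. Each group was 1 library from 1 animal, so no difference below has a replicate check, and the 95% intervals cover counting error only.

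A myofiber is a long syncytium that forms when myoblasts fuse, and its cytoplasm is filled with sarcomeres, in which myosin thick filaments pull on actin thin filaments under the control of troponin and calcium. Fibers are typed by their myosin heavy chain, with Myh7 in slow oxidative fibers and Myh2, Myh1 and Myh4 in progressively faster and more glycolytic ones. Because a fiber is far larger than a droplet, a barcode rich in fiber RNA after digestion may hold a fragment, a small fiber or free fiber RNA together with another cell, and the counts alone do not tell these apart. Fused fibers can also hold nuclei of both species, which would give barcodes with both species' RNA.

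The chimera library held 118872850 UMIs and the SD rat library 70957559, and 12174 and 8980 barcodes passed the filters on UMIs, genes and mitochondrial share. The chimera was mapped to 23373 rat and 25906 mouse genes together, whereas the SD rat was mapped to the rat genes alone, so that a rat read can be lost to a mouse gene only in the chimera. Gene levels are counts per 1e6 UMIs (CPM) over the 16263 symbols that both species' gene lists hold, with rat and mouse counts of a symbol added. Rat rows lack a symbol for several fiber genes, among them Myh1, Atp2a1 and Pvalb, so that these could not be compared between species. Scrublet predicted 101 of the 1122 chimera rat members (9.002%), 1 of the 47 chimera mouse members (2.13%) and 81 of the 2531 SD rat members (3.20%) to be doublets, and they were kept. The libraries shared 43 barcode sequences, which touched 3 chimera members and 13 SD rat members.

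Myofiber barcodes made up 13.2% of chimera rat barcodes (1122 of 8477, interval 12.5 to 13.98), 2.53% of chimera mouse barcodes (47 of 1861, 1.86 to 3.34) and 28.2% of SD rat barcodes (2531 of 8980, 27.3 to 29.1). Mouse barcodes were 4.02% of the chimera's one-species members (47 of 1169, 2.97 to 5.31), compared with 19.8% of its one-species barcodes outside the rule (1814 of 9169, 19.0 to 20.6). With species limits of 90% and 10%, mouse barcodes were 0.898% of one-species members (6 of 668), and members made up 0.391% of chimera mouse and 22.3% of chimera rat barcodes. What the digestion, the strainers and the sort let through can also set these shares. Mixed barcodes, which are not members, made up 35.5% of all chimera barcodes that met the fiber gene rule (642 of 1811, 33.2 to 37.7) but 11.5% of those that did not. Along the mouse share there was no gap in fiber-rich barcodes. There were 144 with 15 to 20% mouse UMIs and 81 with 20 to 25%, and at the other end 56 with 75 to 80% and 27 with 80 to 85%. Mouse members sat near their limit, with a median of 83.7% mouse UMIs and a highest value of 93.5%, whereas mouse barcodes outside the rule had a median of 96.5%. Rat members had a median of 9.12%, below the 11.4% of rat barcodes outside the rule.

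**Figure D1:**
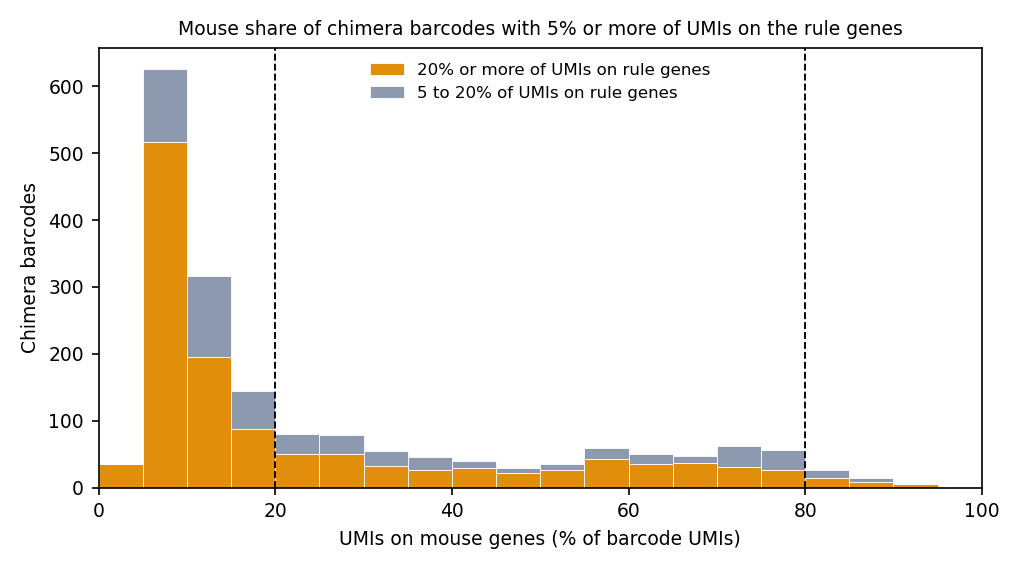
Number of chimera barcodes with at least 5% of UMIs on the 10 fiber genes (y axis) by the percentage of their UMIs on mouse genes (x axis), stacked by whether the fiber genes held 5 to 20% or at least 20% of UMIs, with dashed lines at the 20% and 80% limits. Barcodes fill the whole range between the limits, and the 47 mouse members lie just above 80%, none beyond 93.5%.

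The fiber gene share split the members into a low and a high set. Chimera rat members had a median of 36.2% of UMIs on the 10 genes, chimera mouse members 30.9% and SD rat members 28.4%, against 0.36%, 0.44% and 0.74% in the barcodes outside the rule. At least 20% was reached by 835 of 1122 chimera rat members (74.4%, interval 71.8 to 77.0), 29 of 47 chimera mouse members (61.7%, 46.4 to 75.5) and 1457 of 2531 SD rat members (57.6%, 55.6 to 59.5). Most of these were above 30%, with 746, 26 and 1211 barcodes. Just inside the 5% limit, chimera rat barcodes with 5 to 5.5% numbered 27 with a median of 12109 UMIs, and just outside it 26 barcodes with 4.5 to 5% had a median of 2174.5 UMIs. In the SD rat, 95 barcodes lay just inside and 109 just outside, with medians of 1155 and 1251 UMIs, and in chimera mouse 1 lay inside and 2 outside. The rule therefore cut through a continuous tail, and the results below are given for all members and, where they differ, for the high set.

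**Figure D2:**
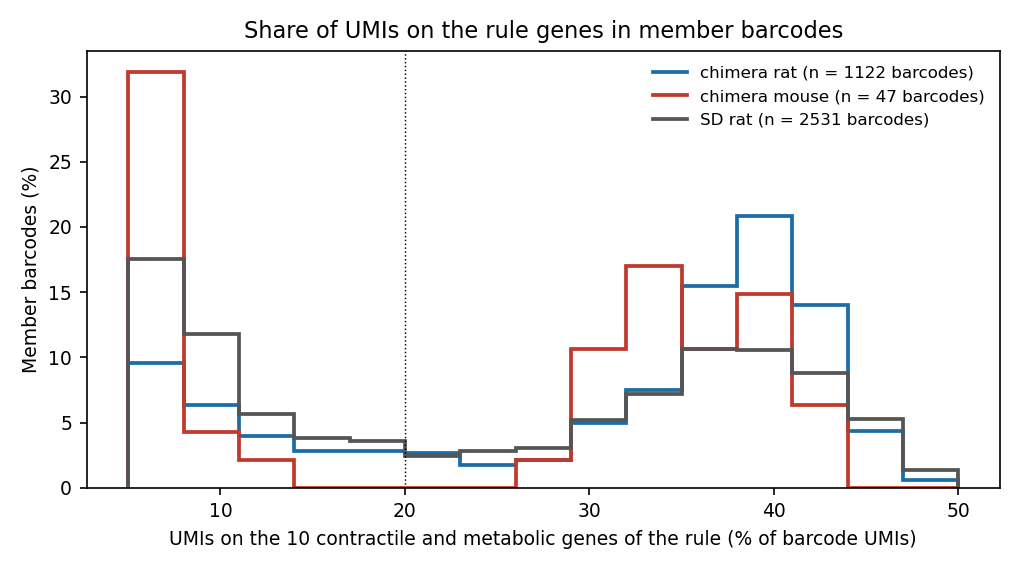
Distribution of the percentage of UMIs on the 10 fiber genes (x axis) over the members of each group (y axis, percent of member barcodes), with a dotted line at 20%. In each group a peak between 30 and 45% stands apart from a tail that begins at the 5% limit, and the tail holds 287 chimera rat, 18 chimera mouse and 1074 SD rat barcodes.

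The high and low sets differed in size and in what else they contained. High-set barcodes had a median of 5555 UMIs in chimera rat, 2936 in chimera mouse and 3824 in SD rat. Low-set barcodes were larger in the chimera, with medians of 10082 UMIs in rat and 6051.5 in mouse, but small in the SD rat, with 908. Barcodes under 1000 UMIs made up 25.6% of SD rat members (648 of 2531) and 2.05% of chimera rat members (23 of 1122). The mitochondrial share of UMIs had a median of 4.12%, 3.40% and 6.12% in the low sets of chimera rat, chimera mouse and SD rat and of 0.31%, 0.71% and 0.71% in the high sets. Low-set values were close to those of barcodes outside the rule, where the medians were 5.54%, 4.58% and 5.28%.

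Transcripts of other cell types were abundant at a low fiber gene share and scarce at a high one. The 8 genes listed for fibro-adipogenic progenitors (FAPs) and fibroblasts, the connective tissue cells of muscle, summed to 35732 CPM of all UMIs in chimera rat members with 5 to 10% on fiber genes and to 547 CPM in those with at least 30%. In SD rat members they went from 43164 to 1128 CPM, and in chimera mouse members from 9850 to 821 CPM. Immediate early and heat shock genes, which tissue digestion is known to induce, went from 10707 to 459 CPM in chimera rat, from 6276 to 980 CPM in chimera mouse and from 8971 to 642 CPM in SD rat. In chimera mouse members, the 8 endothelial markers went from 5305 CPM at 5 to 10% to 198 CPM at 30% or more, and mouse barcodes outside the rule had 10664 CPM. The 1 chimera mouse member between 10 and 20% held 12096 CPM of the 8 myeloid markers. Slow fiber genes peaked in between, at 5822 CPM in chimera rat and 11166 CPM in SD rat members with 10 to 20%, and were at 302 and 429 CPM in those with at least 30%. Several genes of the rule, such as Tnnt3, Tnni2 and Mylpf, are isoforms of fast muscle.

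Fiber genes that the rule did not use were checked next, after each barcode had been thinned to 500 UMIs so that depth was equal and no member was lost. Myoz1, which encodes a Z-disc protein of fast fibers, was found in 84.7% of high-set chimera rat members (707 of 835), 93.1% of chimera mouse (27 of 29) and 81.7% of SD rat (1191 of 1457). Before thinning these shares were 100%, 100% and 98.8%. In barcodes outside the rule, with median depths of 9216, 7026.5 and 8432 UMIs, Myoz1 was found in 3.03%, 4.19% and 5.38% after thinning and in 33.1%, 30.8% and 44.5% before it. Some of those barcodes may also hold fibers. Myh4, the fastest myosin heavy chain, was found after thinning in 60.0% of high-set chimera rat, 31.0% of chimera mouse (9 of 29) and 63.3% of SD rat (923 of 1457) members, and before it in 98.0%, 72.4% and 94.7%. The corresponding shares outside the rule after thinning were 2.81%, 3.09% and 4.56%. In low-set mouse members Actn3 was found after thinning in 2 of 18, and Ttn and Neb in none, whereas in the high set Actn3 was found in 21 and Ttn in 4 of 29. Neb was found in none of the 47 mouse members and in 1.10% of mouse barcodes outside the rule.

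Whether the fiber RNA of a barcode belonged to the species of the rest of its RNA was examined by splitting the UMIs of genes present in both species. In chimera rat members, 2.95% of UMIs on the 10 fiber genes fell on mouse genes (69845 of 2368456), and 7.24% of UMIs on other gene pairs did. In the 29 high-set chimera mouse members, 85.7% of fiber gene UMIs were mouse (33796 of 39439, interval 85.3 to 86.0), and so were 85.9% of those on other pairs. In the 18 low-set chimera mouse members, however, 20.9% of fiber gene UMIs were mouse (2175 of 10403, 20.1 to 21.7) while 90.2% of those on other pairs were. Mouse barcodes outside the rule showed the same kind of gap, with 13.8% (9584 of 69260, 13.6 to 14.1) and 97.2%. For comparison, all chimera barcodes that met the fiber gene rule, mixed ones included, had 11.9% mouse UMIs on these genes (386403 of 3259745, 11.8 to 11.9).

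The split was also examined in single barcodes. Among high-set mouse members, the mouse share of fiber gene UMIs ran from 76.0% to 96.5% with a median of 87.0%, and 23 of 29 were at 80% or above. Low-set mouse members ran from 0.96% to 56.7% with a median of 6.43%, and 13 of 18 were at 20% or below. In chimera rat members the median was 1.27% and the highest value 47.6%, with 1108 of 1122 at 20% or below. Members were chosen by their mouse share over all UMIs, and in the high set the fiber genes are a large part of those UMIs, so that the choice itself bounds these values there and much less so in the low set. The label of mouse myofiber was thus not tested by them in the high set, whereas 16 of the 18 low-set barcodes, which bear the same label, had more rat than mouse UMIs on the fiber genes.

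Single genes showed the same pattern. Acta1, which encodes skeletal muscle actin, had 82.3% mouse UMIs in high-set mouse members (7130 of 8662), 17.3% in low-set ones (492 of 2849), 11.7% in mouse barcodes outside the rule and 2.06% in high-set rat members. For the myosin light chain gene Myl1 the shares were 90.2%, 27.2%, 19.7% and 2.99%. Myh4, which was not in the rule, had 75.4% mouse UMIs in high-set mouse members (107 of 142, interval 67.4 to 82.2) and 13.95% in low-set ones (6 of 43, 5.30 to 27.9). Actn3, the fast fiber α-actinin, had 86.4% (279 of 323) and 16.9% (13 of 77). Endothelial genes went the other way in the low set. Fabp4, a fatty acid binding protein of capillaries, was 99.5% mouse in low-set mouse members (415 of 417 UMIs) and 99.3% in mouse barcodes outside the rule. After thinning, Fabp4 was found in 61.1% of low-set mouse members (11 of 18), 3.45% of high-set ones (1 of 29) and 58.9% of mouse barcodes outside the rule, and before it in 34.5% of the high set and 77.6% of those outside the rule. In high-set rat members, 60.4% of the 679 Fabp4 UMIs were on the mouse gene, compared with 7.96% in rat barcodes outside the rule.

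**Figure D3:**
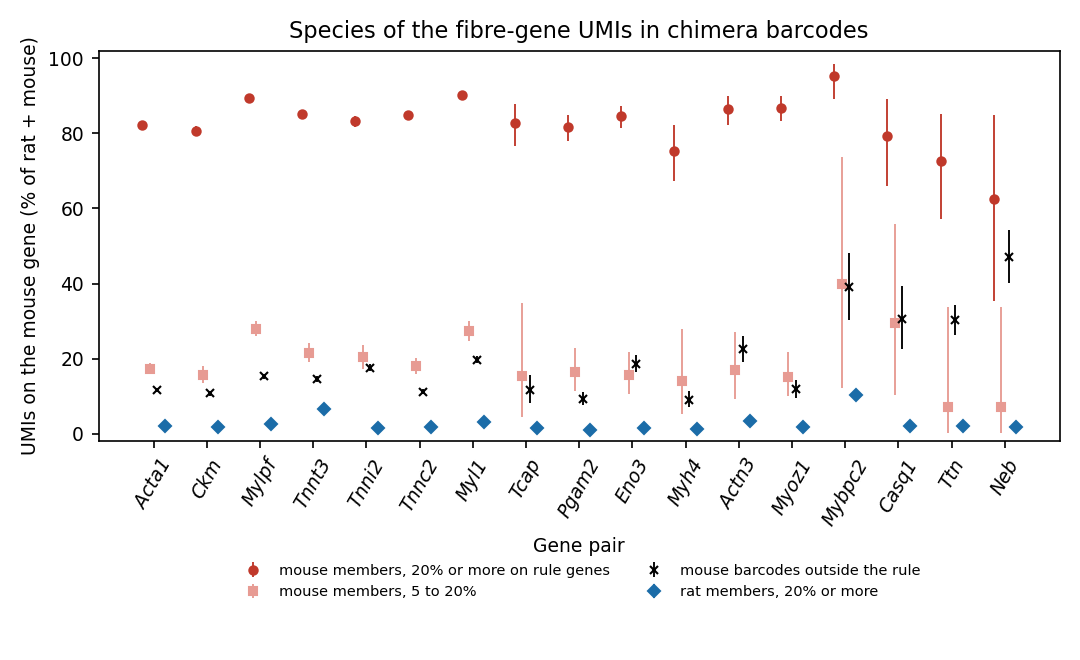
Percentage of UMIs on the mouse copy of each gene pair (y axis) for 17 genes (x axis) in chimera mouse members with at least 20% and with 5 to 20% of UMIs on fiber genes, mouse barcodes outside the rule and rat members with at least 20%, with exact binomial 95% intervals as bars. Acta1 sits at 82.3% in the high-set mouse members and at 17.3% in the low-set ones, and for Neb, with 16 and 14 UMIs, the wide intervals run from 35.4 to 84.8% and from 0.18 to 33.9%.

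Some fiber genes, Pvalb, Atp2a1 and Myh1, could be read only on the mouse side, because the rat rows carry no symbol for them. Their levels are given as a description. The groups were chosen by mouse share and fiber gene share, which largely sets the direction of differences on mouse rows of fiber genes. Mouse Pvalb, encoding parvalbumin, the calcium buffer of fast fibers, had 1093 UMIs spread over 29 of 29 high-set mouse members, or 10226 CPM of all UMIs (interval 9629 to 10851). It had 638 CPM in low-set mouse members, 21.2 CPM in mouse barcodes outside the rule and 398 CPM in high-set rat members. Mouse Atp2a1, the calcium pump of fast fibers, had 203 UMIs in 28 of 29, or 1899 CPM, against 167, 9.78 and 53.4 CPM. Mouse Myh1, the myosin heavy chain of type IIx fibers, had 15 UMIs in 5 of 29, or 140 CPM (78.5 to 231), and none in low-set mouse members, where 3 counts would be 21.8 CPM. EGFP, the sequence of the reporter, had no UMI in any member and 9 in the whole chimera library.

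The 5 myosin heavy chain genes with a symbol in both species were led by Myh4 in every group. Myh4 had 97.7% of their UMIs in chimera rat members (18122 of 18554, interval 97.4 to 97.9) and 97.0% in SD rat members (28153 of 29023, 96.8 to 97.2). In chimera mouse members it had 100% (185 of 185, 98.0 to 100), but only 113 of these UMIs were on the mouse gene. Mouse Myh1, which is not among the 5 genes, had 15 UMIs in chimera mouse members, so that their fibers were not shown to hold Myh4 alone. Myh7, the slow chain, had 1.46% in chimera rat and 1.76% in SD rat members, and Myh2, the chain of type IIa fibers, had 0.76% and 0.99%. Neither had a UMI in chimera mouse members, where 3 of 185 counts would be 1.62%. Embryonic Myh3 had 0.07% and 0.20%, and perinatal Myh8 had 7 UMIs in chimera rat and 14 in SD rat members.

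Barcodes with at least 5 UMIs on these genes were then classed by their leading chain. Myh4 led in 784 of 807 chimera rat members (97.1%), Myh7 in 14 and Myh2 in 9. In the SD rat, Myh4 led in 1251 of 1289 (97.1%), Myh7 in 24 and Myh2 in 14, which is the same share led by Myh4 at this precision. All 9 chimera mouse members that could be classed were led by Myh4, and the other 38 had too few such UMIs. Outside the rule, Myh4 led in 163 of 169 classed SD rat barcodes and Myh7 and Myh2 in 3 each. In the chimera it led in 89 of 90 such rat barcodes, with Myh8 in 1, and in 13 of 14 mouse barcodes, with Myh7 in 1.

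The few barcodes led by Myh7 carried the slow gene program. Myl2, the slow regulatory light chain, was at 23938 CPM in the 14 chimera rat and 31063 CPM in the 24 SD rat barcodes led by Myh7, and at 6.33 and 68.5 CPM in those led by Myh4. Tnnt1, slow troponin T, was at 20471 and 26412 CPM against 3.797 and 47.1 CPM. Myoglobin, encoded by Mb, was at 10370 and 9878 CPM against 924 and 2156 CPM, while Actn3 was at 86.1 and 168 CPM against 2180 and 2113 CPM. In the 14 SD rat barcodes led by Myh2, Mb was at 16804 CPM and Fabp3, the fatty acid binding protein of oxidative muscle, at 3361 CPM, while Tnnt1 was at 46.0 CPM. Other slow genes were higher in these barcodes than in the SD rat barcodes led by Myh4, with Myl2 at 1872 against 68.5 CPM, Myl3 at 1550 against 106 CPM, Myoz2 at 2118 against 63.4 CPM and Tnni1 at 276 against 21.7 CPM. The leading chain and these genes came from the same barcodes, and only the chain was used to class them. Barcodes led by Myh7 had lower fiber gene shares, with medians of 11.4% in chimera rat and 15.7% in SD rat members, than those led by Myh4, with 36.9% and 36.0%.

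Chimera rat members were compared with SD rat members to learn how host fibers in the chimera differed from fibers of a rat. Oxidative metabolism genes were lower in chimera rat members, with Mb at 1307 against 2605 CPM, Fabp3 at 180 against 532 CPM and the mitochondrial creatine kinase Ckmt2 at 101 against 242 CPM. Slow fiber genes and titin were also lower. The lists of fast genes outside the rule and of excitation-contraction coupling had medians near parity, but Mybpc2 of the fast list was at a log2 ratio of -1.10. Myh4, which is in neither list, was also lower, at -0.37 in all members, -0.30 in the high set and -0.43 in members led by Myh4. Of the 1763 genes past a mean of 50 CPM, 32 (1.82%) were at least 2-fold higher and 18 (1.02%) at least 2-fold lower in chimera rat members, on a scale of log2(CPM + 10), and the median log2 ratio was -0.03.

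Within the oxidative metabolism list, 18 of 22 genes were measured above the limit, and 2 of them, Fabp3 and Ckmt2, were at least 2-fold lower in chimera rat members. The log2 ratio was -1.51 for Fabp3 (interval -1.59 to -1.43) and -1.18 for Ckmt2 (-1.29 to -1.07), and that of Mb was -0.99 (-1.02 to -0.96). The other genes differed less, with Slc25a4, the ADP/ATP carrier of fast and heart muscle, at -0.68, the complex IV subunit Cox5b at -0.50 and Cox5a at -0.19. The intervals of 17 of 18 lay below 0, as did those of 37.5% of all 1763 genes (661), the exception being the citrate synthase gene Cs at -0.07 (-0.22 to 0.09). The median over the list was -0.56 in all members and -0.61 in the high set, while in the barcodes outside the rule of the same libraries it was 0.07. The 12 mitochondrially encoded genes had a median of -0.19 in all members, -0.52 in the high set and 0.14 outside the rule.

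Slow fiber genes had a median of -0.53, with 8 of 8 intervals below 0 against 37.5% of all genes, and none at 2-fold. The log2 ratio of Tnnt1 was -0.63, that of Myl3 -0.54 and that of Tpm3 -0.52. Outside the rule the median was -0.83, but the 10 rule genes were at -0.76 and Myh4 at -0.82 there. A lower level in those barcodes was thus not particular to slow genes. Fast genes outside the rule list were at -0.37 and excitation-contraction coupling genes at -0.08 there. The comparison of chimera rat with SD rat members was repeated, after the values had been seen, on the 784 and 1251 members led by Myh4. Rat Myh1 has no symbol, so that type IIx barcodes could not be set apart from these, and the part of fiber type was not tested. The oxidative list had a median of -0.59, with 17 of 18 intervals below 0. Fabp3 was at -1.80 (129 against 475 CPM), Ckmt2 at -1.40 (89.0 against 251 CPM) and Mb at -1.21 (924 against 2156 CPM). Slow genes had a median of -1.26 at low levels, with Myl2 at 6.33 against 68.5 CPM. The 12 mitochondrially encoded genes had a median of -0.10 there, with 7 intervals below 0 and 3 above. Over all 1672 genes tested, the median was -0.01 and 33.4% of intervals (558) lay below 0. Depth, digestion and the 2 references also differed between the libraries, and their part in these differences was not tested. Markers of other cell types, as summed CPM of all UMIs, also differed between chimera rat and SD rat members, with 11677 against 13648 for FAPs, 448 against 762 for endothelium, 922 against 541 for myeloid cells and 266 against 690 for the 3 globin and other red cell genes matched. In members with at least 30% on fiber genes these sums were 547 against 1128, 147 against 173, 63.8 against 31.0 and 60.2 against 313, and their part was not tested. With gene counts limited to rat rows, the oxidative median was -0.51 and the slow median -0.46.

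Sarcomere scaffold genes had a median of -0.38 over 13 measured of 21, with 9 intervals below 0 and 3 above 0, against 37.5% and 29.6% of all genes, and none at 2-fold. Ttn, the giant spring protein titin, was at 535 against 1061 CPM, a log2 ratio of -0.98 (interval -1.03 to -0.92). The thin filament ruler Neb was at -0.65, and Nrap, which takes part in myofibril assembly, at -0.81. Des, the intermediate filament desmin, was at 1565 against 1215 CPM, or 0.36, but 60.2% of its UMIs in chimera rat members were on the mouse row, and with rat rows alone the ratio was -0.87. The Z-disc gene Myot was at 0.25. Outside the rule the list had a median of -0.40.

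Among fast genes outside the rule, Actn3 was at 1859 against 1772 CPM, a log2 ratio of 0.07, Myoz1 at 0.11 and the calcium store protein gene Casq1 at 0.40. Mybpc2, encoding fast myosin binding protein C, was lower at 361 against 786 CPM, or -1.10 (interval -1.17 to -1.04), and 10.7% of its UMIs in chimera rat members were on the mouse row. Genes of excitation-contraction coupling had a median of -0.02 over 12 of 12 measured genes, from -0.49 for Ryr1, the calcium release channel, to 0.37 for Cacna1s, the voltage sensor. Glycolysis and glycogen genes had a median of -0.03. Aldoa, muscle aldolase, was the exception at 479 against 150 CPM, or 1.61, and 66.9% of its chimera rat UMIs were on the mouse row. With rat rows alone its ratio was 0.15. The 7 small heat shock genes, which protect sarcomere proteins, had a median of -0.02. The 10 rule genes lay between -0.48 for Eno3 and 0.39 for Myl1, which is given as a description because they chose the members.

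Dystrophin itself was too sparse to compare, with 156 Dmd UMIs in chimera rat, 1 in chimera mouse and 222 in SD rat members. Of its complex, 3 of 10 genes were measured, among them the dystrophin homolog Utrn with a log2 ratio of -0.61 and the laminin chain Lama2 with -0.03. No neuromuscular junction gene passed the limit. Of the genes for immature or regenerating fibers, only cardiac actin Actc1 did, at 108 against 177 CPM and a log2 ratio of -0.67. Among immediate early and heat shock genes the median was 0.14, with Dnajb1 at 1.06, Fos at 0.91 and Fosb at -0.49. For Fos, 35.5% of the chimera rat UMIs were on the mouse row, and with rat rows alone the ratio was 0.37. In the high set Dnajb1 was at 0.57 and no gene of the list was at 2-fold.

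The largest log2 ratios in this comparison belonged to genes with mouse row counts. Lars2, a mitochondrial tRNA synthetase, was at 559 against 1.76 CPM, a log2 ratio of 5.60, and 99.6% of its UMIs in chimera rat members were on the mouse row. With rat rows alone its ratio was 0.09. Camk1d at 5.41, Cmss1 at 5.34, Rpl22 at 2.60 and Rplp2 at 2.57 likewise had 88.3 to 99.02% of their UMIs on the mouse row, and with rat rows alone they ran from -0.53 to 0.23. Gphn had 1328 UMIs, all on the mouse row, and none in SD rat members. Against a floor of 3 counts over the group that is at least 532-fold higher, but with rat rows alone its ratio was 0. The SD rat was mapped to rat genes alone, so that this fold cannot be read as a difference in level. These genes had log2 ratios of 2.52 to 5.70 in the barcodes outside the rule as well. Plac8, a gene of immune cells, was at 2.43 with 0.74% on the mouse row, and at 0.66 in the high set. Of the 5 myeloid markers measured, 4 were at least 2-fold higher and 1 was at least 2-fold lower, at -1.54, with a median of 1.32. In the high set 1 was at least 2-fold higher and 1 at least 2-fold lower, and the median was 0.34.

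The lowest log2 ratios belonged to Hs6st3, a heparan sulfate sulfotransferase, with 3 against 2220 UMIs and -4.61 (interval -4.66 to -4.50), and Glis1, a zinc finger factor, with 7.79 against 194 CPM and -3.52. Outside the rule they were at -5.75 and -3.26, so that both differed across the libraries and not in fibers alone. Flt1, an endothelial VEGF receptor, was at -1.98 and at -1.27 in the high set. The phosphatase gene Pgp was at 66.9 against 293 CPM, or -1.98, and at -0.89 outside the rule. Morf4l2 at -1.65, Serf2 at -1.60 and Eif4g2 at -1.48 had values of -1.66, -1.58 and -1.65 outside the rule. Fabp3, also among the 8, was at -0.61 there. In the high set Ckmt2 and the globin gene Hba-a2 joined the lowest, the latter at 49.5 against 408 CPM and -2.81.

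**Figure D4:**
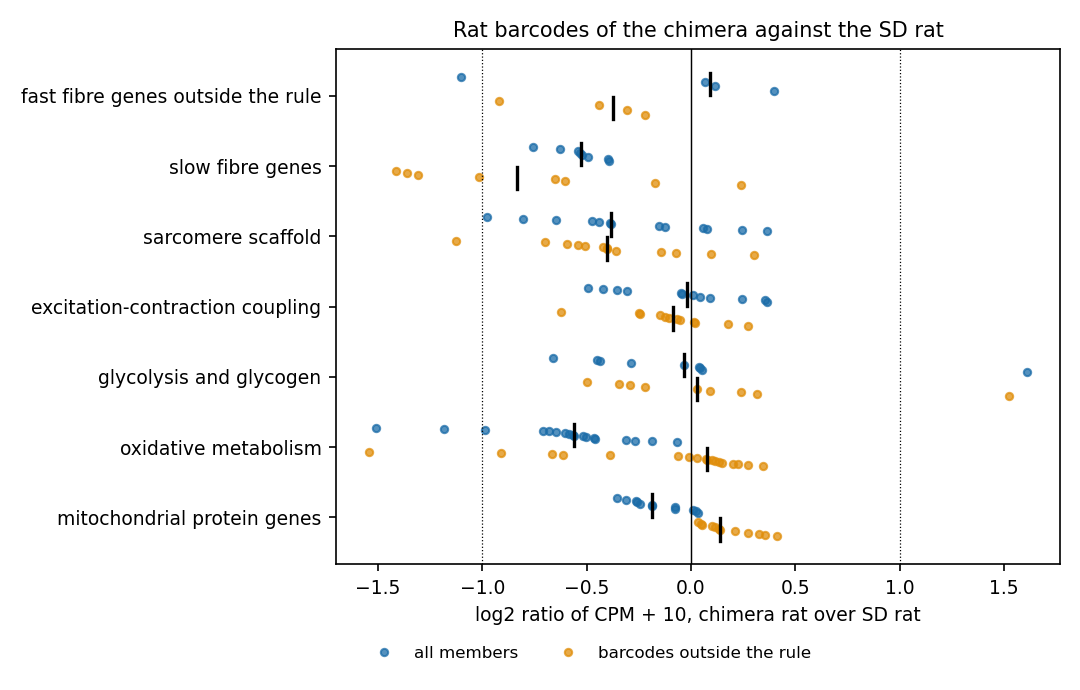
Log2 ratio of chimera rat to SD rat (x axis, log2(CPM + 10)) for the measured genes of each gene list (rows), in all members and in barcodes outside the rule, with black bars at the list medians and dotted lines at 2-fold. The oxidative list sits at a median of -0.56 in members and 0.07 outside the rule. Slow genes sit at -0.53 and -0.83, and the list of fast genes outside the rule, which leaves out Myh4, at 0.09 and -0.37.

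Chimera mouse members were compared with chimera rat members within the same library. The 2 groups differ at once in iPSC origin, in species and in the gene rows that hold their counts. No library of mouse muscle alone was sequenced, so that these cannot be told apart in the differences below. In the 29 high-set mouse members the cardiac actin gene Actc1, which skeletal muscle expresses mainly before birth, was at 2885 CPM against 120 CPM in the 835 high-set rat members. Myh4 was at 1540 against 3210 CPM, while Mybpc2 was at 1117 against 490 CPM. Of 1962 genes past the limit over all members, 383 (19.5%) were at least 2-fold higher and 206 (10.5%) at least 2-fold lower in mouse members, and the median log2 ratio was 0.20. In the high set 163 and 165 of 1222 genes were, and the median was -0.05. The high set is given beside most values, because the 18 low-set mouse barcodes held mostly rat RNA on the fiber genes.

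Actc1 had 266 UMIs in 82.8% of the 29 high-set mouse members, and its log2 ratio was 4.48 (interval 4.27 to 4.68) there and 3.53 in all members. SD rat members had 177 CPM. With each species' own rows alone the ratio over all members was 4.18, and 32.8% of the Actc1 UMIs in chimera rat members were on the mouse row. Outside the rule the ratio was -1.34, with 17.2 CPM in mouse and 59.1 CPM in rat barcodes. The other genes for immature or regenerating fibers were below the limit, and Myh3 and Myh8 had no UMI in mouse members.

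Slow fiber genes summed to 7 UMIs or fewer each in all 47 mouse members except Atp2a2 with 11 and Tpm3 with 36, and the 8 measured genes had a median log2 ratio of -4.01 over all members and -1.79 in the high set. These genes passed the limit through the rat members, so the medians carry no weight as a result about slow genes. In the 784 chimera rat members led by Myh4, Tnnt1, Tnni1, Tnnc1, Myl2 and Myl3 lay at 3.797 to 22.8 CPM, while 3 counts over the 47 mouse members would be 14.5 CPM. Myl3 had no UMI in mouse members and 343 CPM in rat members, where 1634 of its 2599 UMIs lay in the 14 barcodes led by Myh7. Tnni1 likewise had no UMI in mouse members, and 831 of its 1077 UMIs in rat members lay in those 14 barcodes. Outside the rule the 8 slow genes had a median of 0.44.

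Myh4 had a log2 ratio of -1.41 (895 against 2392 CPM) in all members and -1.05 in the high set. Fast genes outside the rule had medians of 0.18 and 0.60, with Mybpc2 at 0.59 and 1.17 (interval 0.88 to 1.46), Actn3 at 0.06 and 0.51 and Casq1 at 0.31 and 0.70. Mybpc2 was thus higher in mouse than in chimera rat members and lower in chimera rat than in SD rat members, which had 786 CPM, and these comparisons share the chimera rat members. Rule genes had medians of -0.48 and -0.12, given as a description.

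Sarcomere scaffold genes had medians of -0.75 and -0.40. Neb was at 174 against 546 CPM in the high set, a log2 ratio of -1.60 (interval -2.35 to -0.93). It rested on 16 UMIs in mouse members, of which 10 were on the mouse gene. Actn2 at -1.19 and Myom2 at -1.47 were also at least 2-fold lower in the high set. Ttn was at -0.91 and -0.53. Excitation-contraction coupling genes had medians of -0.06 and 0.45. Stac3, an adaptor of the calcium channel, was at -1.66 and -1.43, and Asph, a membrane protein of the calcium store, at 0.49 and 1.17. With each species' own rows alone, values over all members were lower for Neb (-2.60), Actn2 (-2.53) and Ttn (-1.50), and Actn3 (-0.18) and Casq1 (-0.06) lay below 0.

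Aldoa was at 18731 against 583 CPM in the high set, a log2 ratio of 4.98. All SD rat members had 150 CPM of Aldoa beside 8690 CPM of Gapdh, and 66.9% of Aldoa UMIs in chimera rat members were on the mouse row. Whether reads of the rat gene were lost was not tested, so that these values do not give its level in rat fibers. The other glycolysis and glycogen genes ranged from -1.43 for Phka1 to 0.44 for Gapdh in the high set, and the list had medians of -0.53 and -0.07. Oxidative genes had medians of -0.47 and -0.20. The complex IV subunit Cox7a1, the muscle isoform, was at 1117 against 60.8 CPM in the high set, or 3.99. In chimera rat members 70.0% of its UMIs were on the mouse row, and all SD rat members had 26.4 CPM. Cox7a1 was at 0.15 outside the rule. Idh2 was at -2.18 and -2.66, on only 4 UMIs in all mouse members, and Mb at -1.86 and -1.11. The 12 mitochondrially encoded genes had medians of 0.10 and -0.27, and none was at 2-fold.

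Other genes with the highest ratios were housekeeping genes with few rat row counts. Rpl37, a ribosomal protein gene, was at 2616 CPM in mouse and 83.6 CPM in rat members, a log2 ratio of 4.81, while 98.0% of its rat member UMIs were on the mouse row and SD rat members had 0.77 CPM. Rpl35a at 4.61 and Ier3ip1 at 3.53 had 95.8% and 100% on the mouse row and at most 0.66 CPM in SD rat members. Selenok at 3.54 and Gng5 at 3.33 had 36.5% and 70.3%. All 5 were also higher in the high set, at 2.79 to 4.30, and outside the rule, at 3.77 to 6.93. Hspa8, a constitutive chaperone gene, was at 2.30 in all members, 1.67 in the high set and 1.68 outside the rule.

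The lowest ratios over all members rested on few UMIs in mouse members, and several were less low in the high set. The genes named for them passed the limit through the rat members, so that their direction is a description. Igfbp5 was at -3.24 in all members and -0.29 in the high set. Cxcl3, a chemokine gene, was at -3.28 (interval -4.10 to -2.09, 2 UMIs in mouse members) and -0.95, and Ecrg4 at -4.07 (-4.62 to -2.75, 1 UMI) and -1.13. Cep295nl was at -4.39 (-4.94 to -3.07, 1 UMI), Plau at -3.51 (-4.43 to -2.42, 3 UMIs) and Ifitm1 at -3.38 (-3.93 to -2.06, 1 UMI). Tnmd, a tendon gene, had no UMI in mouse members and was at least 7.97-fold lower over all members. In high-set rat members Cep295nl, Plau, Ifitm1 and Tnmd were at 32.0, 21.9, 28.4 and 20.5 CPM. Over the high-set mouse members 3 counts would be 32.5 CPM, so that a lower level of these genes could not be measured there. Endothelial genes were higher over all members, with 7 of 7 measured at least 2-fold and a median of 2.47, but in the high set none was and the median was 0.34. FAP genes had medians of -1.02 and -0.92. In the high set, the lowest genes included G0s2, an inhibitor of fat breakdown, with 0 UMIs against 774 and at least 4.97-fold lower, and Dgkz, at least 4.10-fold lower. Zfp60 was at -3.17 (-3.72 to -1.85, 1 UMI) over all members and at least 3.44-fold lower in the high set. None of these genes had a UMI in high-set mouse members, and they passed the limit there through the rat members. These folds are thus given as a description. Mt1, a metallothionein, was at 7.01 over all members, with 90.2% of its UMIs in 1 barcode, and at 2.14 in the high set on 8 UMIs.

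**Figure D5:**
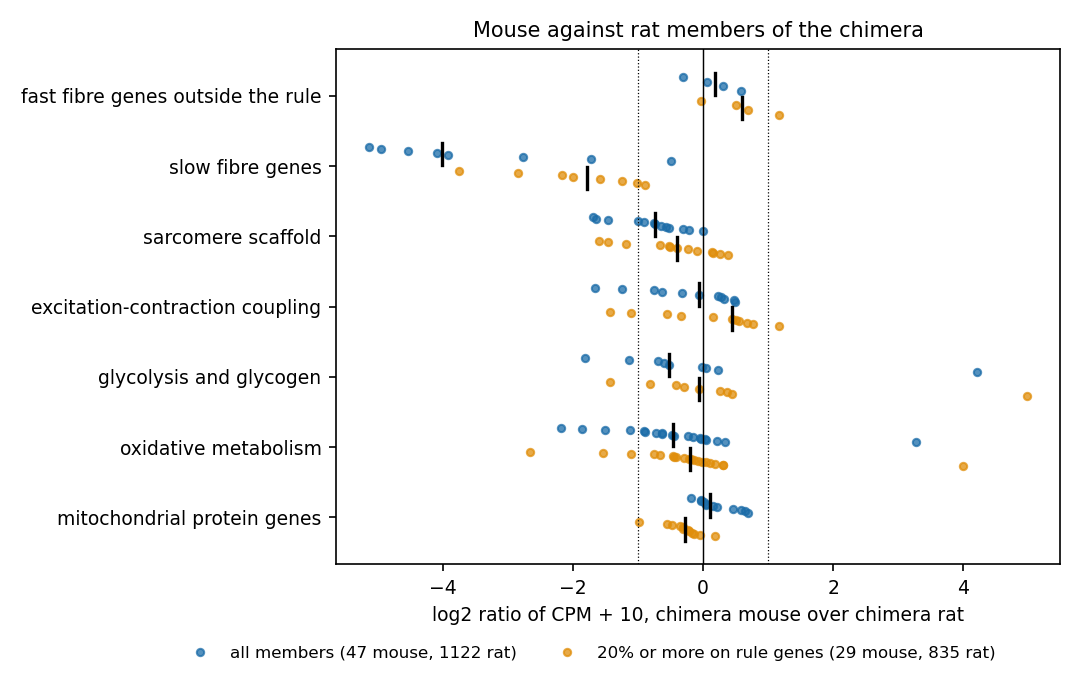
Log2 ratio of chimera mouse to chimera rat members (x axis, log2(CPM + 10)) for the measured genes of each gene list (rows), in all members (47 against 1122 barcodes) and in those with at least 20% of UMIs on fiber genes (29 against 835), with black bars at the list medians and dotted lines at 2-fold. Slow fiber genes sit at a median of -4.01 in all members and -1.79 in the high set, but they passed the limit through the rat members. Oxidative genes sit at -0.47 and -0.20.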

How the data were processed

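Single-cell RNA-seq of skeletal muscle from 1 rat-mouse chimera and 1 SD rat was analyzed. The authors deposited UMI counts per gene and barcode, not normalized, made with Cell Ranger 7.1.0, with builds mRatBN7.2 and GRCm39 (submitters' processing notes). UMIs of reads shared by both species can be lost or assigned to the other species in the chimera only. The members and gene lists were chosen with earlier results of these data known. Rat and mouse rows of a symbol were added (case ignored), and 3156 rat rows that carry an Ensembl ID alone were not used for symbols. Levels are summed UMIs per 1e6 over 16263 symbols. Ratios are log2 of CPM + 10 for genes with a mean of at least 50 CPM, 2-fold was the limit for a count, and intervals are exact binomial ones at 95%. With 1 library per group no test was run. Members held 8685333 (chimera rat), 244774 (chimera mouse) and 10061063 (SD rat) UMIs, of which 87.2%, 84.5% and 90.5% were on these symbols. Named genes were the 8 highest and 8 lowest ratios among genes found in at least 5% of barcodes of the higher group with no barcode holding over 20% of the UMIs there, plus the listed genes, and a few genes so chosen are not reported here. The high set (at least 20% on rule genes) was followed gene by gene after values had been seen. Classes by myosin chain needed 5 UMIs, and Myh1 could not enter them. Of 5 nuclear-retained RNAs, 0 matched, and that list is void. Scrublet (scanpy 1.11.5, expected rate 8%) marked 444 chimera and 164 SD rat barcodes. Python 3.11.15, numpy 2.4.6, scipy 1.17.1, pandas 2.3.3 and matplotlib 3.10.9 were used, and the code was tested on simulated data. Alternatives were other limits for the rule, species, depth, doublets, shared barcodes, rows, pseudocount, filter and scaling.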

Additional observations from a re-analysis of the deposited data

Results flagged for a closer look

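Mouse genes whose rat counterparts carry no symbol lay outside the comparisons and showed signal in the 29 chimera mouse members with at least 20% of UMIs on fiber genes. Mouse Pvalb had 1093 UMIs there (10226 CPM of all UMIs, against 21.2 CPM in mouse barcodes outside the rule), mouse Atp2a1 had 203 (1899 against 9.78 CPM) and mouse Myh1 had 15 (140 against 0.78 CPM). Each was above the limit that a count of 0 allows. The barcodes were chosen by fiber gene share and mouse share, so that these contrasts are a description. With 1 library per group, no sample could be set apart from the others of its group.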

How the results depend on the processing

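No paired analysis was possible because each group had 1 library. Of 92 recomputed main values, 62 moved little and 30 moved. With the fiber gene rule at 10%, members were 11.4% of chimera rat, 1.61% of chimera mouse and 20.9% of SD rat barcodes, the Myh4 share was 98.2% in chimera rat and 97.8% in SD rat, and 188 genes were 2-fold higher in mouse members. At 20% these were 9.85%, 1.56%, 16.2%, 99.2%, 98.8% and 163. With species limits of 90% and 10%, mouse members were 0.898% of one-species members, members were 22.3% of chimera rat and 0.391% of chimera mouse barcodes, and 34 (chimera rat against SD rat) and 340 (mouse against rat) genes were 2-fold lower. Without predicted doublets the chimera rat values were 12.4% members and 97.9% Myh4, and with at least 1000 UMIs SD rat members were 22.7%. For chimera rat against SD rat, own-species rows gave 20 genes higher and 38 lower, and turned Cmss1 (-0.53), Rpl22 (-0.23) and Rplp2 (-0.40). Without a filter 93 and 34 were called, without rule and mitochondrial genes in the total 34 lower, with the mean of barcode CPM 137 lower, and in members led by Myh4 20 higher. For mouse against rat members, no filter gave 1324 and 723 and the reduced total 337 lower. Of the single genes named, 399 recomputed values moved little, 150 moved and 3 reversed. Depth limits the 47 mouse members most, where 3 counts over the group were 14.5 CPM.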
